A study of Homo sapiens with 9 samples.

Results

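NR2F1, NR2F2, NR2F6, NR2C1 and NR2C2 encode 5 orphan members of the NR2 branch of the nuclear receptors. They were taken by gene name, 5 of the 58735 genes listed, and all 5 passed the filter on low counts that left 18319 genes for testing. The group was chosen because NR2F1 was among the genes lower with AGB1 in these same libraries, so its members' values are given as descriptions, with fold changes and intervals. That NR2F1 passed the threshold with AGB1 is part of this choice and not a finding. RNA captured on poly-T beads was sequenced from HEK293T, a human line derived from embryonic kidney and transformed with adenovirus and SV40 sequences. All 9 libraries, DMSO included, came from cells in which PRPS1 was fused to HA-dTAG and PRPSAP1 to V5-BromoTag; these proteins are a phosphoribosyl pyrophosphate synthetase and a protein associated with it. The 3 groups of 3 libraries were cells given dTAG47 at 500 nM, which directs the dTAG fusion PRPS1 to degradation, cells given AGB1 at 500 nM, which directs the BromoTag fusion PRPSAP1 to degradation, and cells given DMSO. Treatment with either compound lasted 24 h. Neither clonality nor separate culture of the 3 libraries in a group is stated in the labels, and every error and p-value here reflects library-to-library spread that could be technical.

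Nuclear receptors are transcription factors that read short DNA hexamers through a pair of zinc fingers, usually as dimers. NR2F1 and NR2F2, also called COUP-TFI and COUP-TFII, have no established physiological ligand, bind repeats of the hexamer AGGTCA at many spacings, and often repress genes that retinoic acid receptors activate, by taking the same sites or the shared partner RXR. Both are themselves induced by retinoic acid in embryonal carcinoma cells and pattern the nervous system, and NR2F2 is also known for venous endothelium and mesenchyme, kidney stroma included. NR2F6, or EAR2, is the more distant COUP-TF. NR2C1 and NR2C2, or TR2 and TR4, pair with each other and are known for silencing embryonic and fetal globin genes with a corepressor complex.

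The stretch that encodes the DNA-reading helix of the first zinc finger shows how the 5 genes relate, and why their reads can be told apart. The 33 coding bases from each gene's longest GENCODE coding sequence are given 5′ to 3′ on the coding strand, with capitals where a base differs from NR2F1.
NR2F1: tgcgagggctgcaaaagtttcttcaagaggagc
NR2F2: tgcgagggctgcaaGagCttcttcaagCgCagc
NR2F6: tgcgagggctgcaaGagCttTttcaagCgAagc
NR2C1: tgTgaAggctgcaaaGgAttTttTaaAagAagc
NR2C2: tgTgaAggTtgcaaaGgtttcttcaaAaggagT
NR2F2 differed from NR2F1 at 4 of these bases and NR2F6 at 5, against 8 in NR2C1 and 6 in NR2C2. Over the 198 bases that encode the DNA-binding domain, NR2F1 was 90.4% identical to NR2F2, 83.3% to NR2F6, 66.2% to NR2C2 and 61.1% to NR2C1. NR2C1 and NR2C2 were 68.7% identical to each other. The longest run of identical bases between aligned coding sequences of any pair was 35, and none of the 5 transcripts shared a 75-base word with another member. Reads of that length are therefore not interchangeable among them. Actual read length was not found in the sources.

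The genes lie on 5 chromosomes (GRCh38). NR2F1 (ENSG00000175745) spans 93583224 to 93594615 on the plus strand of chromosome 5, and NR2F2 (ENSG00000185551) spans 96325938 to 96340263 on the plus strand of chromosome 15. NR2F6 (ENSG00000160113) spans 17231883 to 17245940 on the minus strand of chromosome 19. NR2C1 (ENSG00000120798) spans 95020229 to 95073703 on the minus strand of chromosome 12, and NR2C2 (ENSG00000177463) spans 14947584 to 15053600 on the plus strand of chromosome 3. Counting by strand is not stated, so reads of overlapping genes on opposite strands cannot be told apart. Such overlaps cover 3.66% of the exonic bases of NR2F1 (with the antisense gene NR2F1-AS1) and 10.1% of those of NR2C2 (with MRPS25, a mitochondrial ribosomal protein gene). Of the NR2F6 words, 6.35% also occur in AC010646.1, a gene on the same strand that had 0 counts in all 9 libraries.

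The RefSeq window before the NR2F1 start site is shown because NR2F1 is the member whose level differed most between the groups. The 250 bases at chr5:93582972-93583221 (GRCh38.p14, plus strand) are given with capitals marking a CCAAT box, the letters TATAAG and the receptor hexamer AGTTCA.
NR2F1 promoter: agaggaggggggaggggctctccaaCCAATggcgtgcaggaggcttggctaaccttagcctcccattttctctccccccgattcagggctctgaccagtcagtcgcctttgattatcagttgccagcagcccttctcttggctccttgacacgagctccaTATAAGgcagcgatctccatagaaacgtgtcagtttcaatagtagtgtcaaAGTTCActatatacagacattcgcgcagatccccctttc
The CCAAT letters begin 225 bases before the start, the TATAAG letters 90 bases and the AGTTCA hexamer 39 bases. Searched on both strands, AGTTCA occurs in 10.4% of 35116 RefSeq promoter windows of 300 bases, TATAAG in 5.59%, CCAAT in 34.6% and the consensus hexamer AGGTCA in 13.8%. AGGTCA itself is not in the NR2F1 window. These are letter matches and say nothing about binding. RefSeq windows at hand covered 4 of the 5 genes; the start sites of the NR2F2 windows lie 6627 and 7827 bases inside the gene, and these windows are not shown.

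Measured per length in DMSO, these orphan receptors were among the most abundant nuclear receptor transcripts of the line. All 48 human nuclear receptor genes are listed and 38 were tested. In DMSO the 3 COUP-TF genes held the top 3 ranks, with NR2F6 at 19.6 ± 2.78 RPKM, NR2F1 at 19.3 ± 1.12 and NR2F2 at 16.1 ± 0.573 (SD, n = 3; RPKM from the deposited gene lengths, which sum all annotated exons). ESRRA, an orphan receptor of mitochondrial gene control, came next at 14.8 ± 0.770 RPKM. With the compounds the ESRRA mean was above that of NR2F2. It was 16.3 ± 2.19 against 14.3 ± 0.427 RPKM with dTAG47, and 14.5 ± 1.07 against 14 ± 1.19 RPKM with AGB1. NR2C2 had rank 7 at 9.60 ± 0.809 RPKM and NR2C1 rank 11 at 5.86 ± 0.384 RPKM. The NR2F6 and NR2F1 ranges overlapped in DMSO, so their order is not resolved. Per length, every NR2F1 library (18.1 to 20.2 RPKM) lay above every NR2F2 library (15.5 to 16.7 RPKM). That order rests on the gene lengths used, 4314 bases for NR2F1 and 6459 for NR2F2. Without lengths it was reversed in DMSO, with NR2F1 at 77.9 to 87.2 CPM and NR2F2 at 100.3 to 107.7 CPM. Other ranks rest on the lengths too. In CPM the NR2C2 mean in DMSO, 113.5 ± 9.56, was above those of the 3 COUP-TF genes. The NR2F6 mean, 52.4 ± 7.44 CPM, was below those of the receptors NR1D2 (60.3 ± 5.89) and THRA (57.1 ± 6). For NR2C2 the length used was 11821 bases, while its longest transcript has 8113. The levels of the retinoid partners were lower, at 11.2 ± 0.791 RPKM for RXRB and 3.45 ± 0.318 for RXRA. The remaining NR2 receptors were scarce: HNF4G had 0.481 RPKM, HNF4A and NR2E3 were below the filter, and NR2E1, a neural stem cell receptor, had 0 counts in all 9 libraries.

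**Figure D1:**
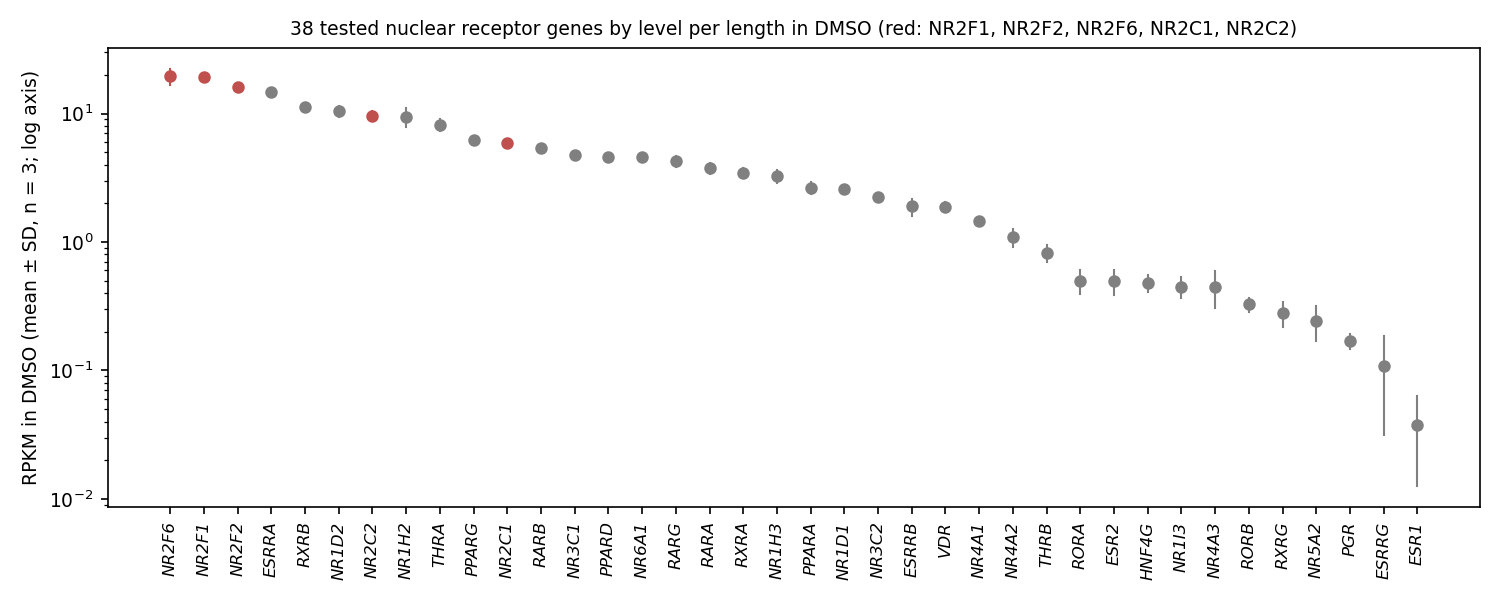
Level per length (RPKM, log axis) of the 38 tested nuclear receptor genes in the 3 DMSO libraries, in falling order; points are means, bars ± SD, and red marks NR2F1, NR2F2, NR2F6, NR2C1 and NR2C2. The 3 COUP-TF genes hold the top 3 ranks, from 19.6 to 16.1 RPKM, NR2C2 has rank 7 and NR2C1 rank 11. The order rests on the gene lengths used and differs in CPM.

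NR2F1 was lower with either compound than in DMSO, and its mean was lowest with AGB1. Its level was 71.0, 65.1 and 75.1 CPM (counts scaled to library size, with TMM factors) in dTAG47 1 to 3, 67.3, 62.5 and 58.0 CPM in AGB1 1 to 3, and 87.2, 77.9 and 85.0 CPM in DMSO 1 to 3. All 6 compound libraries lay below all 3 DMSO libraries, while dTAG47 2 fell within the AGB1 range. The log2 fold change was −0.41 with AGB1 (SE 0.08, 95% interval −0.57 to −0.26), from 62.6 ± 4.61 CPM against 83.4 ± 4.83 CPM in DMSO (SD, n = 3), and −0.25 with dTAG47 (SE 0.08, −0.40 to −0.09), from 70.4 ± 5.03 CPM. The value with AGB1 is what the choice of these genes rested on. Between the compounds the difference was 0.17 (dTAG47 minus AGB1, SE 0.08, 0.01 to 0.32). That interval is not adjusted for the number of genes, and the difference did not pass edgeR's threshold. It also holds the AGB1 values by which NR2F1 was chosen.

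NR2F2 was also lower with either compound, by less. Its level was 91.6, 95.5 and 90.2 CPM in dTAG47 1 to 3, 98.3, 83.0 and 89.9 CPM in AGB1 1 to 3, and 107.7, 100.3 and 104.2 CPM in DMSO 1 to 3. As for NR2F1, all 6 compound libraries lay below the 3 DMSO libraries, although AGB1 1 came close to DMSO 2. The log2 fold change was −0.17 with dTAG47 (SE 0.07, −0.31 to −0.03) and −0.20 with AGB1 (SE 0.07, −0.34 to −0.06), and dTAG47 minus AGB1 was 0.03 (−0.11 to 0.17). NR2F1 and NR2F2 were thus the 2 of 5 genes whose compound libraries all lay below DMSO, a pattern of 2.20% of all tested genes; nothing is read from this count, since both comparisons share the DMSO libraries and entered the choice of genes.

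NR2F6 showed no such separation. It was at 63.6, 51.2 and 57.4 CPM in dTAG47 1 to 3, 49.4, 53.5 and 50.2 CPM in AGB1 1 to 3, and 47.7, 48.6 and 61.0 CPM in DMSO 1 to 3. The groups overlapped, with dTAG47 1 and DMSO 3 highest. Across 11435 genes, the Spearman rank correlation of a library's deviations from the gene means with transcript GC content was 0.623 in dTAG47 1 and 0.271 in DMSO 3, and from −0.378 to 0.0497 in the other 7 libraries. The NR2F6 transcript is 71.1% GC, the highest of the 5; the part of GC content in the NR2F6 values was not tested beyond removing the trend. The log2 fold change of 0.13 with dTAG47 (SE 0.09, −0.06 to 0.32) became 0.08 with the GC trend removed, and that with AGB1 was −0.04 (−0.23 to 0.15).

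NR2C1 had 39.8, 38.8 and 38.0 CPM in dTAG47 1 to 3, 36.5, 35.5 and 31.3 CPM in AGB1 1 to 3, and 37.7, 41.0 and 36.1 CPM in DMSO 1 to 3. The dTAG47 libraries lay inside the DMSO range, and AGB1 1 overlapped DMSO 3. Its log2 fold change was 0.02 with dTAG47 (−0.16 to 0.20) and −0.15 with AGB1 (SE 0.09, −0.33 to 0.03). The 3 dTAG47 libraries all lay above the 3 AGB1 libraries, as in 5.35% of tested genes, with a difference of 0.17 (dTAG47 minus AGB1, −0.01 to 0.35).

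NR2C2 stood at 112.1, 107.0 and 113.3 CPM in dTAG47 1 to 3, 108.7, 114.1 and 101.9 CPM in AGB1 1 to 3, and 112.3, 123.7 and 104.7 CPM in DMSO 1 to 3. All 3 groups overlapped, with DMSO 2 the highest library. Its log2 fold change was −0.03 with dTAG47 (−0.17 to 0.10) and −0.07 with AGB1 (−0.21 to 0.07), and the second interval reaches the size seen for NR2F2 with AGB1. MRPS25, which overlaps it, was at 110.7 ± 5.29, 111.8 ± 2.51 and 112.0 ± 6.36 CPM in dTAG47, AGB1 and DMSO.

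**Figure D2:**
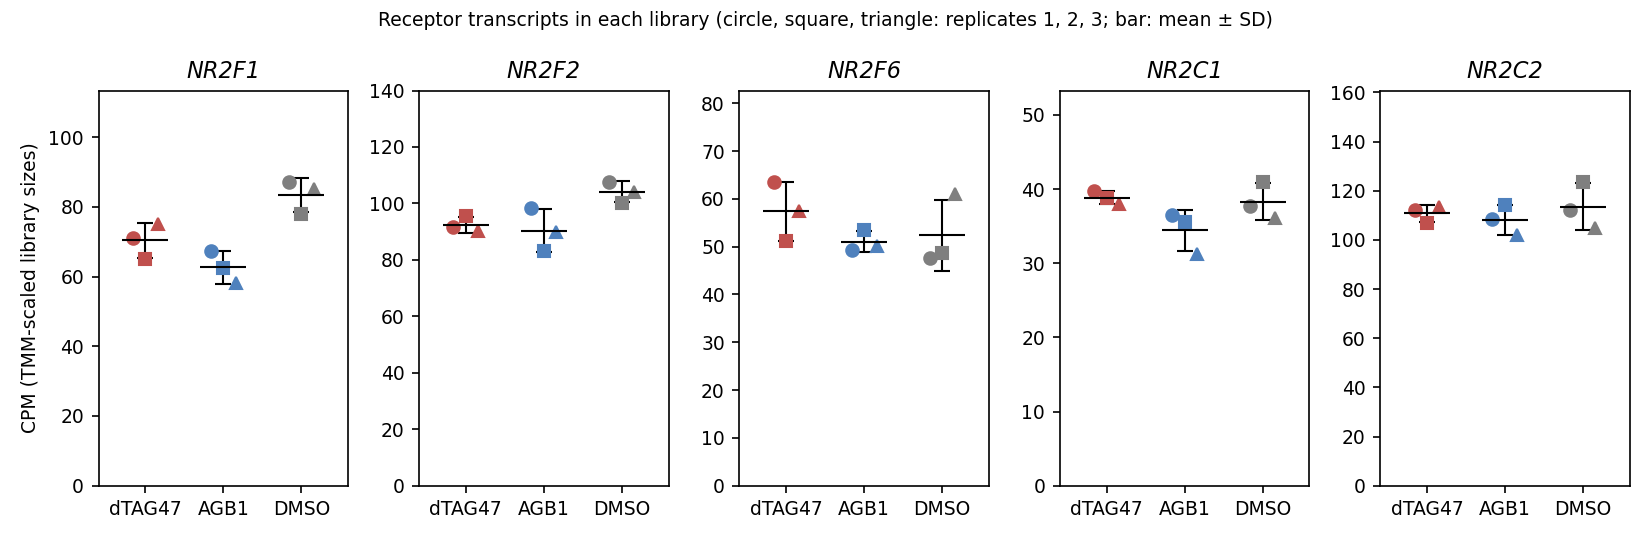
Transcript level (CPM on TMM-scaled library sizes, axes from 0) of the 5 receptor genes in each of the 9 libraries; circles, squares and triangles are replicates 1 to 3, and bars are means ± SD. For NR2F1 the 6 compound libraries (58.0 to 75.1 CPM) lie below the DMSO libraries (77.9 to 87.2 CPM), and likewise for NR2F2, while NR2F6, NR2C1 and NR2C2 overlap with DMSO.

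**Figure D3:**
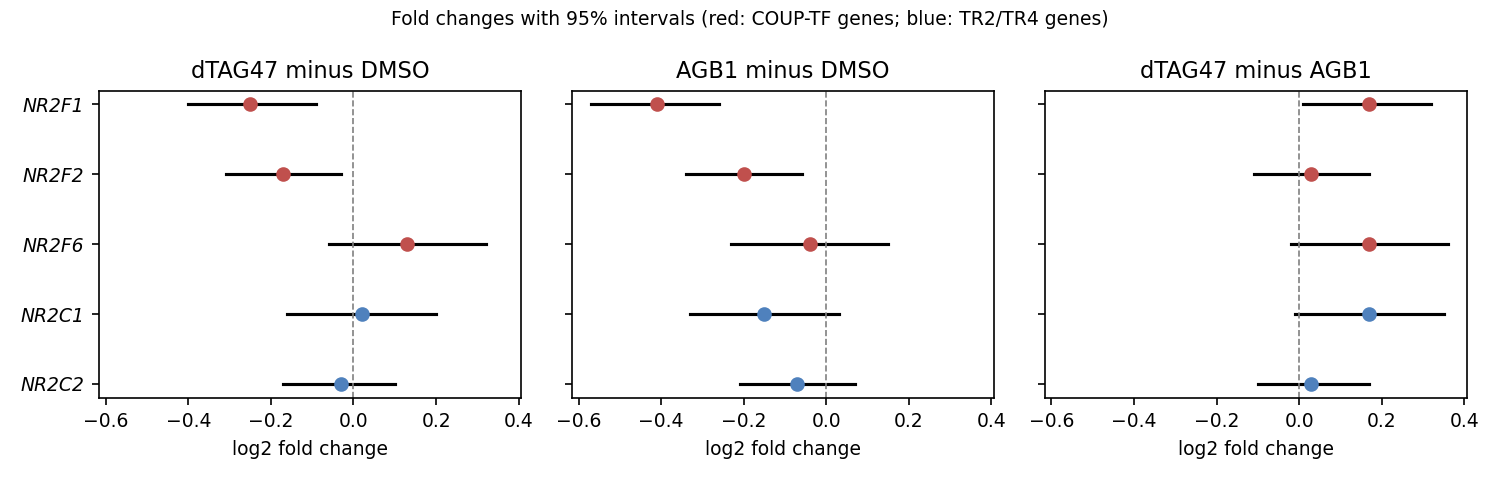
Log2 fold changes of the 5 genes in the 3 comparisons, as points with 95% intervals from the edgeR fit; red marks COUP-TF genes and blue NR2C1 and NR2C2. NR2F1 and NR2F2 lie below 0 with dTAG47 (−0.25 and −0.17) and with AGB1 (−0.41 and −0.20), with intervals that do not reach 0, and the other 3 genes have intervals that span 0 in all 3 comparisons. The intervals are not adjusted for the number of genes tested, and only NR2F1 with AGB1 passed edgeR's threshold. These comparisons entered the choice of genes, so the intervals are descriptions.

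Among all genes, edgeR called 11 with dTAG47 (0.0600% of those tested) and 19 with AGB1 (0.104%) at an adjusted p under 0.05, and NR2F1 was among the 19. Nothing is read from that, since the choice of genes rested on it. Between the compounds 0 genes were called (0% of those tested; 736 had an unadjusted p under 0.05, and DESeq2 also called 0). NR2F1 no longer passed the threshold without AGB1 2, AGB1 3 or DMSO 1, where its log2 fold change with AGB1 was −0.41, −0.36 and −0.38. That fold change lay between −0.47 and −0.36 over the 9 fits that left out a library. With the GC trend removed it was −0.42 with AGB1 and −0.28 with dTAG47. In bulk RNA, fewer cells with a transcript and less transcript per cell cannot be told apart.

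The make-up of the COUP-TF transcripts follows from these values and was not tested. NR2F1 made up 31.3% ± 1.47 of the summed RPKM of the 3 genes with dTAG47, 30.5% ± 1.21 with AGB1 and 35.1% ± 1.66 in DMSO (SD, n = 3). NR2F6 made up 41.1% ± 2.35 with dTAG47, 40.1% ± 2.40 with AGB1 and 35.5% ± 3.17 in DMSO, and the NR2F2 share was 27.6% ± 2.29, 29.4% ± 2.02 and 29.3% ± 1.61 in dTAG47, AGB1 and DMSO. NR2F6 was thus well above NR2F1 per length in the compound groups (21.5 ± 2.30 against 16.3 ± 1.17 RPKM with dTAG47, and 19.1 ± 0.802 against 14.5 ± 1.07 RPKM with AGB1), where in DMSO the means were close. The DMSO libraries differed, with NR2F6 at 38.9% and NR2F1 at 33.6% in DMSO 3, and 32.6% and 36.9% in DMSO 1. NR2F6 was highest in dTAG47 1 and DMSO 3 (23.8 and 22.8 RPKM), the libraries with the highest GC correlations. The shares were not corrected for GC. With AGB1 the NR2F1 and NR2F2 ranges overlapped (13.5 to 15.6 and 12.8 to 15.2 RPKM), and their ratio was 1.14 ± 0.116 with dTAG47, 1.04 ± 0.0836 with AGB1 and 1.20 ± 0.0321 in DMSO. The summed level of the 3 genes was 52.1 ± 2.77 RPKM with dTAG47, 47.6 ± 1.62 with AGB1 and 55.0 ± 3.46 in DMSO.

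Antisense and neighbouring genes were read beside the receptors. NR2F1-AS1, the long noncoding RNA that begins within NR2F1 and runs the other way, was low, at 5.11 ± 0.864 CPM with dTAG47, 3.79 ± 0.620 with AGB1 and 4.36 ± 1.31 in DMSO. Its log2 fold change was 0.22 with dTAG47 (SE 0.22, edgeR adjusted p = 0.879) and −0.21 with AGB1 (SE 0.23, adjusted p = 0.876). NR2F2-AS1 was at most 0.643 CPM in any DMSO library, too few reads to compare. The nearest tested protein-coding genes on both sides of NR2F1 and NR2F2 were picked by position after the data were seen. Around NR2F1, ARRDC3 (2199865 bases before) had −0.14 with dTAG47 and −0.02 with AGB1 (SE 0.13 each), and FAM172A (23454 bases after) −0.08 and −0.03 (SE 0.11 each). Around NR2F2, RGMA (3236734 bases before) had −0.25 with dTAG47 and −0.21 with AGB1 (SE 0.11 each), and ARRDC4 (1620435 bases after) −0.0012 and 0.03 (SE 0.09 each). None of these 4 passed edgeR's test with either compound (lowest adjusted p 0.627). NR2C2AP, whose product binds and represses NR2C2, had −0.08 with dTAG47 and −0.10 with AGB1 (SE 0.11 each).

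Genes reported as COUP-TF targets in other cells included a single call. Of 24 listed, 18 were tested. With AGB1 edgeR called 1, NRP1, which fell, beside 0.104% of all tested genes called. In that comparison 3 of the 18 had an unadjusted p under 0.05, beside 1421 of all 18319 tested genes. DESeq2 called 2 of the 18, and 75 genes in all. A negative fold change with AGB1 was seen in 13 and the median was −0.13, beside 50.3% negative and a median near 0 among all tested genes. With dTAG47 edgeR called 0 of the 18, beside 0.0600% of all tested genes. An unadjusted p under 0.05 was seen in 5, beside 1333 of all 18319, and DESeq2 called 2, beside 47 in all. Of the 18, 10 were negative with dTAG47 and the median was −0.16. NRP1 encodes neuropilin 1, a receptor for semaphorins and VEGF. It was at 30.6, 35.3 and 30.8 CPM in dTAG47 1 to 3, 28.5, 28.4 and 30.4 CPM in AGB1 1 to 3, and 45.6, 41.7 and 40.8 CPM in DMSO 1 to 3. As for NR2F1, all compound libraries lay below DMSO, a pattern of 2.20% of all tested genes. Nothing is read from this, since NRP1 was named for its call against these same DMSO libraries. The NRP1 log2 fold change was −0.55 with AGB1 (SE 0.09, edgeR adjusted p = 0.00354) and −0.40 with dTAG47 (SE 0.09, adjusted p = 0.122). The AGB1 call held in all 18 other settings. Those settings refit the same libraries, and the list was drawn up with earlier results of these data known, so passing there is no separate support. Of the NRP1 exonic bases, 4.87% overlap the opposite-strand gene AL121748.2. FOXC1, a forkhead factor named after its values were seen, had −0.19 with dTAG47 (SE 0.05, edgeR adjusted p = 0.219) and −0.15 with AGB1 (SE 0.05, edgeR adjusted p = 0.367).

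Genes that make, break down or respond to retinoic acid were mostly on the negative side with both compounds, as NR2F1 and NR2F2 were. Of 31 listed, with the receptors above left out, 24 were tested; 22 had a negative fold change with dTAG47 (median −0.23) and 19 with AGB1 (median −0.22), beside 50.3% of all tested genes in each comparison. Both comparisons share the DMSO libraries, and the list was drawn up with earlier results of these data known. All 3 compound libraries lay below all 3 DMSO libraries in 10 of the 24 with dTAG47, against 5.82% of all tested genes, and in 10 with AGB1, against 6.75%. With dTAG47 edgeR called 1 of the 24, with 10 at an unadjusted p under 0.05 and 1 called by DESeq2. With AGB1 it called 2, with 10 at an unadjusted p under 0.05 and 5 called by DESeq2. Among all tested genes edgeR called 0.0600% with dTAG47 and 0.104% with AGB1. An unadjusted p under 0.05 was seen in 1333 of these 18319 genes with dTAG47 and in 1421 with AGB1. DESeq2 called 47 and 75 genes in all. ALDH1A2, which makes retinoic acid from retinaldehyde, fell with dTAG47, and DHRS3, a retinaldehyde reductase, and HOXB3, a homeobox gene, fell with AGB1.

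ALDH1A2 stood at 57.9, 60.6 and 59.5 CPM in dTAG47 1 to 3, 67.6, 59.2 and 64.9 CPM in AGB1 1 to 3, and 76.2, 74.0 and 79.4 CPM in DMSO 1 to 3. Its log2 fold change was −0.37 with dTAG47 (SE 0.07, edgeR adjusted p = 0.0337) and −0.26 with AGB1 (SE 0.07, adjusted p = 0.235). The dTAG47 call ended in 10 of 18 settings, 8 of them leaving out a library (each but AGB1 2; adjusted p from 0.0527 to 0.223), the others being the replicate block (0.0749) and the fit of only the 2 groups (0.0917). DESeq2 also called ALDH1A2 with AGB1 (adjusted p = 0.0432). Of its exonic bases, 4.11% overlap AQP9 on the opposite strand. DHRS3 stood at 23.7, 26.1 and 24.4 CPM in dTAG47 1 to 3, 18.1, 22.9 and 20.8 CPM in AGB1 1 to 3, and 31.1, 30.5 and 36.6 CPM in DMSO 1 to 3. Its log2 fold change was −0.67 with AGB1 (SE 0.11, edgeR adjusted p = 0.00327) and −0.40 with dTAG47 (SE 0.10, adjusted p = 0.21). The DHRS3 call with AGB1 held in all 18 settings, which refit the same libraries and are no separate support. HOXB3 stood at 20.6, 17.7 and 20.1 CPM in dTAG47 1 to 3, 17.7, 17.4 and 16.4 CPM in AGB1 1 to 3, and 22.5, 27.7 and 24.4 CPM in DMSO 1 to 3. For all 3 genes the compound libraries lay below every DMSO library, as in 2.20% of all tested genes. Nothing is read from this, since each was named for a call against these same DMSO libraries. HOXB3 had −0.53 with AGB1 (SE 0.11, edgeR adjusted p = 0.0419) and −0.35 with dTAG47 (SE 0.11, adjusted p = 0.36). Its AGB1 call ended without DMSO 2, dTAG47 3 or any AGB1 library (adjusted p from 0.0624 to 0.347) and with the replicate number as a block (0.0835). Its count is uncertain where exons are shared, 5.81% of bases with HOXB6, 2.13% with HOXB4 and 5.02% with HOXB-AS1. RARB, a retinoic acid receptor whose gene is a classical retinoic acid target, was named after its values were seen, at −0.31 with dTAG47 (SE 0.12, edgeR adjusted p = 0.533) and −0.51 with AGB1 (SE 0.12, adjusted p = 0.0995). Its receptor paralog RARA was on the other side, at 0.33 with dTAG47 (SE 0.11, edgeR adjusted p = 0.459) and 0.19 with AGB1 (SE 0.11, adjusted p = 0.714).

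**Figure D4:**
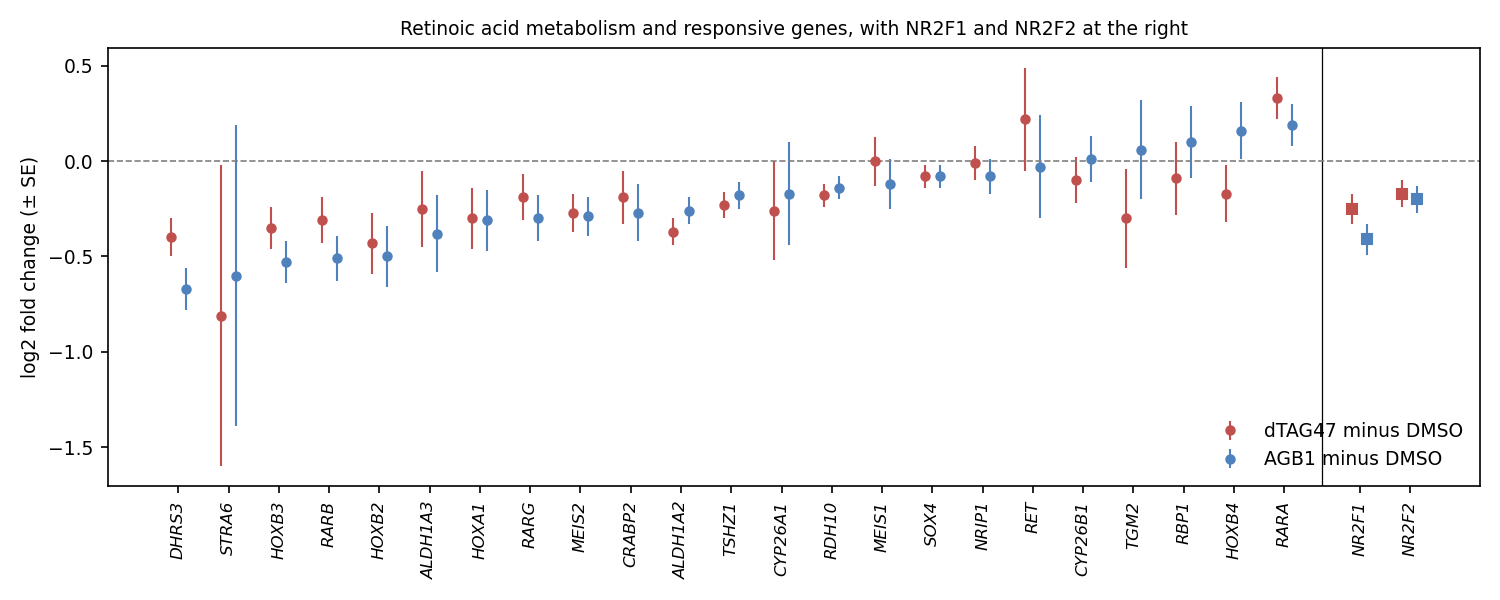
Log2 fold changes (points, ± SE) of 23 of the 24 tested retinoic acid genes with dTAG47 (red) and AGB1 (blue) against the shared DMSO libraries, ordered by the AGB1 value, with NR2F1 and NR2F2 as squares at the right. With dTAG47 21 of the 23 points lie below 0, and with AGB1 18, DHRS3 lowest of these at −0.67.

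The partners and corepressors of these receptors gave no call in edgeR's test. Since edgeR called only 0.0600% of all tested genes with dTAG47 and 0.104% with AGB1, 0 calls in so short a list is no result about its genes. An unadjusted p under 0.05 was seen in 1333 of all 18319 tested genes with dTAG47 and in 1421 with AGB1. Of 19 COUP-TF cofactors, 0 passed with dTAG47 (4 at an unadjusted p under 0.05, 1 called by DESeq2) and 0 with AGB1 (5 at an unadjusted p under 0.05, 0 by DESeq2). The medians were −0.01 with dTAG47 and −0.04 with AGB1. HDAC1, a histone deacetylase that corepressors recruit, was the most abundant, at 459.7 ± 4.60, 447.4 ± 8.41 and 475.7 ± 15.3 CPM in dTAG47, AGB1 and DMSO, and HDAC2 was at 229.1 ± 18.6, 228.3 ± 4.51 and 234.4 ± 4.30 CPM. Of 16 partners of NR2C1 and NR2C2, 0 passed with either compound (1 at an unadjusted p under 0.05 with each, 0 by DESeq2), with a median of −0.01 in both. In that list the chaperone gene CALR had 0.13 with dTAG47 and 0.03 with AGB1, and RBBP4, a histone-binding subunit, −0.06 and −0.03 (SE 0.05 each). Among 8 tested genes of 14 reported as NR2C1 or NR2C2 targets, MYC rose with AGB1 (0.29, SE 0.06, edgeR adjusted p = 0.0409). With dTAG47 it was at 0.13 (edgeR adjusted p = 0.676). The list medians were −0.18 with dTAG47 and −0.14 with AGB1. edgeR called 0 of the 8 with dTAG47 and 1 with AGB1, beside 0.104% of all tested genes with AGB1. An unadjusted p under 0.05 was seen in 2 with each compound, and DESeq2 called 0 and 1. The MYC libraries read 175.4, 156.2 and 162.8 CPM with dTAG47, 187.6, 177.1 and 189.3 CPM with AGB1, and 141.8, 156.2 and 154.5 CPM in DMSO. The MYC call ended without DMSO 1, DMSO 2, dTAG47 3 or any AGB1 library (adjusted p from 0.0624 to 0.294), on library sizes alone (0.0545) and with the replicate number as a block (0.0785).

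The other nuclear receptors lay on both sides of 0. Of 43 listed, 33 were tested, and 15 were negative with dTAG47 (median 0.07) and 16 with AGB1 (median 0.01). edgeR called 0 with dTAG47 (6 at an unadjusted p under 0.05, 0 by DESeq2) and 0 with AGB1 (5 at an unadjusted p under 0.05, 1 by DESeq2). The edgeR shares over all 18319 tested genes were 0.0600% and 0.104%, with 1333 and 1421 genes at an unadjusted p under 0.05. Nothing is read from 0 calls beside shares that small. RXRA, a heterodimer partner, had −0.06 with dTAG47 and −0.19 with AGB1 (SE 0.09 each), and RXRB −0.01 and 0.16 (SE 0.08 each). THRA, a thyroid hormone receptor, had 0.12 in both, and the circadian repressor NR1D2 0.08 and 0.06 (SE 0.08 each). In the NR2 and RXR list of 7, 4 were tested and 0 called (1 at an unadjusted p under 0.05 with each compound, 0 by DESeq2). Its median was 0.24 with dTAG47 and 0.20 with AGB1. The higher values were of 2 scarce genes, HNF4G and RXRG, at 2.31 and 0.753 CPM in DMSO. HNF4G had 0.75 with dTAG47 and 0.51 with AGB1 (SE 0.24 each), and RXRG 0.50 and 0.24 (SE 0.46 and 0.47).

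The expression patterns most like each receptor over the 9 libraries were compared among 10839 protein-coding genes at 5 CPM or more, by Pearson's r of log2 CPM. These are descriptions: the libraries share treatment and composition, and the closest of many genes will be close. For NR2F1 the closest was FGFR2, a fibroblast growth factor receptor (r = 0.944), which averaged 20.9 ± 1.05, 18.0 ± 1.15 and 23.0 ± 0.170 CPM in dTAG47, AGB1 and DMSO. PBX2, a HOX cofactor (0.938), PIANP (0.914), NEBL (0.914) and MPP3 (0.913) followed. Close to NR2F2 were DLC1 (0.958), which averaged 30.9 ± 0.608, 31.5 ± 3.08 and 37.3 ± 2.91 CPM in dTAG47, AGB1 and DMSO, and the homeobox gene ZFHX3 (0.935). NR2F1 and NR2F2 had r = 0.775 with each other, place 113 in the NR2F1 order. NR2C1 and NR2C2 had r = 0.727, and NR2F6 had 0.138 with NR2F1 and −0.244 with NR2F2. The genes closest to NR2F6 were TMEM259 (0.965), ECSIT (0.956) and MIGA2 (0.955). TRIM52 (0.946), ASAP2 (0.926) and PPP2R2C (0.918) were closest to NR2C1, and GABBR1 (0.918), CCDC150 (0.91) and PGBD4 (0.894) to NR2C2.

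The libraries and the line were checked once. Total counts ranged from 27964128 to 44803380, so that 3 counts correspond to between 0.0670 and 0.107 CPM, and the 5 receptors had from 967 to 4789 counts in a library. The transcripts of the tagged genes do not report on protein depletion: for PRPS1 the log2 fold change was 0.09 in dTAG47 and 0.08 in AGB1 libraries, and for PRPSAP1 0.01 and −0.02. Of the markers listed for HEK293T, all 9 were tested, KRT8, KRT18, VIM, NEFM and NEFL among them, while the kidney markers PAX2 and LHX1 were low at 1.40 and 2.92 CPM in DMSO. All 5 neuron markers were tested too, GAD1 highest at 13.5 CPM in DMSO. Passing the count filter therefore does not set the HEK293T markers apart. Of 31 markers of this line, mesenchyme, endothelium, neurons and blood cells, 21 were tested and edgeR called 0 with dTAG47 (1 at an unadjusted p under 0.05) and 0 with AGB1 (4 at an unadjusted p under 0.05), with 0 by DESeq2 in each. Over all 18319 tested genes edgeR called 0.0600% and 0.104%, and 1333 and 1421 had an unadjusted p under 0.05. The 0 calls are therefore no result about the markers. Mesenchyme and endothelium, which express NR2F2 in tissue, had 3 of 6 markers tested each. The summed mesenchymal level was 27.5 to 34.1 CPM with dTAG47, 23.4 to 27.4 CPM with AGB1 and 28.3 to 32.6 CPM in DMSO. The AGB1 sums lay below those of DMSO, but 0 of the 3 tested genes was separated in this way by itself. Among all tested genes 6.75% were. Most of the summed level was the collagen gene COL1A1, with a log2 fold change of 0.09 with dTAG47 (SE 0.10) and −0.15 with AGB1 (SE 0.11). PDGFRA, a growth factor receptor of mesenchyme, was at 0.932, 0.832 and 1.75 CPM in dTAG47, AGB1 and DMSO (−0.90 and −1.08, SE 0.45 and 0.46; edgeR adjusted p = 0.687 and 0.552). DCN, COL1A2 and LUM averaged at most 0.196 CPM in any group. The summed endothelial level was 103.7 to 110.2 CPM with dTAG47, 97.6 to 106.7 CPM with AGB1 and 97.2 to 109.7 CPM in DMSO, nearly all of it EPHB4, and CDH5 averaged 0, 0 and 0.0536 CPM. The part of these markers in the NR2F1 and NR2F2 values was not tested.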

How the data were processed

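Each of the 9 libraries had a deposited table of whole-number read counts per gene made by the authors, with gene names, positions and gene length; all 58735 genes match GENCODE release 29 on GRCh38. The authors used HISAT2, hg38 and DESeq2, per the submitters' processing notes; the counting tool, its strand setting and versions were not given in the sources used here. Gene length is the deposited length column and was used for RPKM. Total counts ranged from 27964128 to 44803380. No molecular identifiers are mentioned, so precision from counts covers counting error only.

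Counts were fitted with edgeR 4.0.16 in R 4.3.3 (filterByExpr, TMM, quasi-likelihood test, a mean for each of the 3 groups over 9 libraries, Benjamini-Hochberg adjustment over all 18319 tested genes, threshold 0.05), which was tested on simulated data. The simulated counts had the same spread for every gene and no GC trend, unlike these libraries. No result here rests on them. DESeq2 1.42.0 and 17 other settings were tried. The GC correction removed a lowess trend (span 0.3) of each library's deviations on transcript GC.

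The 5 receptors and the gene lists were chosen with earlier results of these data known. Named in each list were up to 4 genes past the threshold in any comparison, otherwise the 2 with the highest mean CPM, and beside them the antisense genes, NR2C2AP and the closest patterns over libraries (prior count 2); other names are marked. Replicate numbers were checked for pairing: deviations of same-numbered libraries correlated between −0.156 and 0.0715, so the numbers were not taken to pair libraries. RefSeq promoter windows are of build GRCh38.p14. A few items that the naming rule would include are not reported here, though list counts include them.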

Additional observations from a re-analysis of the deposited data

How the results depend on the processing

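The 5 receptors' fold changes kept their side of the threshold in all 3 comparisons under the 18 settings, except NR2F1 with AGB1, which no longer passed without AGB1 2, AGB1 3 or DMSO 1; NR2F1 was chosen for that value, so passing elsewhere is no support. Without one library at a time, NR2F2 ranged from −0.20 to −0.14 with dTAG47 and from −0.26 to −0.14 with AGB1, and NR2F6 from 0.05 to 0.25 and from −0.10 to 0.08. Counts of genes called moved more. With dTAG47 the count of 11 became 43 without a count filter, 4 with only the 2 groups compared, 22 with the GC trend removed, 47 by DESeq2, and between 2 and 20 without one library. With AGB1 the count of 19 became 67 without a count filter, 48 with the GC trend removed, 51 with that and the replicate block, 75 by DESeq2, and between 6 and 55 without one library. Between the compounds the count of 0 became 13 without a count filter and between 0 and 2 without one library. The causes were not tested. With the replicate block alone the counts were 10, 17 and 0; the libraries share a number and not a stated origin, and 3 of 18 cases correlated best with their own number. Chosen after seeing the data, the counts of negative folds among 24 retinoic acid genes lay between 19 and 22 with dTAG47 and between 18 and 20 with AGB1 when a library was left out. With 3 libraries a group, changes inside the intervals given for NR2F6, NR2C1 and NR2C2 could not be told from 0. NR2F1 with dTAG47 and NR2F2 with either compound did not pass edgeR's threshold either, although their unadjusted intervals lay below 0. Nor did NR2F1 between the compounds, although its unadjusted interval for dTAG47 minus AGB1 lay above 0.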
